A study of Rattus norvegicus with 8 samples.

Results

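The NF-kB family and the proteins that control it were followed at the transcript level through 10 genes, read as the rows of the expression table that carry their gene names. They are the 5 subunit genes Rela, Relb, Rel, Nfkb1 and Nfkb2, the IkB family genes Nfkbia, Nfkbib, Nfkbie and Nfkbiz, and the feedback gene Tnfaip3. All 10 were found among the 21017 rows of the table, each as a single row. The cells were neonatal rat cardiomyocytes of the SD strain (Sprague-Dawley), labelled as heart tissue. One group of 4 libraries received siECHS1, a small interfering RNA against Echs1, and the other group of 4 libraries received the control duplex siNC. Total RNA was taken 48 h after transfection in every library, so both groups went through transfection. The knockdown is transient rather than a deletion, and the share of cells that took up the duplex was not measured. Echs1 encodes a mitochondrial enoyl-CoA hydratase of fatty acid and branched-chain amino acid breakdown, and the comparison asks which transcripts differ when it is lowered.

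In resting cells NF-kB dimers are held in the cytoplasm by IkB proteins. Signals from cytokine and pattern-recognition receptors activate the IkB kinase, which marks IkB for degradation and frees the dimer to enter the nucleus. There the dimers bind short kB sites and switch on cytokine, chemokine, adhesion and survival genes, and also the genes of several of their own inhibitors. Much of this control acts on protein stability and location, which transcript levels do not measure.

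Because NF-kB is known to regulate some of its own family, the promoters were read for the kB consensus, the 10-letter motif that these dimers bind. RefSeq promoter windows of the GRCr8 rat assembly, each from 250 bases before to 50 bases after the gene start, were held for 9 of the 10 genes, and Relb was not among them. Both strands were searched, and overlapping matches were allowed. In 7 of the 9 windows there was at least 1 match, and in the windows of Rela and Nfkbib there was none. Among all 33469 promoter windows of the same length, 4.18% held a match, and among the 10766 windows within the members' range of G and C (57.0% to 77.3%) the share was 6.21%. The windows below are those of the subunit with the largest change, the other gene without a match, and 3 genes that carry matches close to the start. They are written 5′ to 3′ on the strand of the gene, and capitals mark bases within a kB match on either strand. Rela lies at chr1:212354086-212354385 on the plus strand, Nfkbib at chr1:93181338-93181637 on the minus strand, Nfkb2 at chr1:255108124-255108423 on the plus strand, Nfkbia at chr6:78597023-78597322 on the minus strand and Tnfaip3 at chr1:15543930-15544229 on the minus strand.
Rela: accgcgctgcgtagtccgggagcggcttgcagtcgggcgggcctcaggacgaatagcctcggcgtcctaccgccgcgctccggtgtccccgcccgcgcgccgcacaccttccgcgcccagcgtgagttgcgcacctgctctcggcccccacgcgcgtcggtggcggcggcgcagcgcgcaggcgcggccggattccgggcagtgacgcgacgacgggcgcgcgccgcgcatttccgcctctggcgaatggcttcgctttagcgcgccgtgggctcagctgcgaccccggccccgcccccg
Nfkbib: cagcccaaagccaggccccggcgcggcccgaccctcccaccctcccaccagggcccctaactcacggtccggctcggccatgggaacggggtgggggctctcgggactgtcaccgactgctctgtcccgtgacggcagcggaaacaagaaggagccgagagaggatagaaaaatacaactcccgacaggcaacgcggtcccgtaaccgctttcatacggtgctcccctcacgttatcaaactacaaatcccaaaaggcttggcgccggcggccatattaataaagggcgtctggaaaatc
Nfkb2: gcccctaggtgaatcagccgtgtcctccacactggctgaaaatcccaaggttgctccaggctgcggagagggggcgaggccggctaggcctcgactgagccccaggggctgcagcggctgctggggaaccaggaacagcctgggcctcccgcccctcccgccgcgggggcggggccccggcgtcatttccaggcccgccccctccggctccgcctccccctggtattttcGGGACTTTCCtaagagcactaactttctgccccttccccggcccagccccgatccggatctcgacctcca
Nfkbia: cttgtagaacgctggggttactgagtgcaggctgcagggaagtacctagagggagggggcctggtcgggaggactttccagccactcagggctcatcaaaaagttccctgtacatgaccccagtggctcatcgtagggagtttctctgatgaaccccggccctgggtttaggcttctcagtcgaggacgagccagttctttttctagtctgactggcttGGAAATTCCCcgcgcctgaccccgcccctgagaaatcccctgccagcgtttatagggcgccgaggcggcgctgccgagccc
Tnfaip3: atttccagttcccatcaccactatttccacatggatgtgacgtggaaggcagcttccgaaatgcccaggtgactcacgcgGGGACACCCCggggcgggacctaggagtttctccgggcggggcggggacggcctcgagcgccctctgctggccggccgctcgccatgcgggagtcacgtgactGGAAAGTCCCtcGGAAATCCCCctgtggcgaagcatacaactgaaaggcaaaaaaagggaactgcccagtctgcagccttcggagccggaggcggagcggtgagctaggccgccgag

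In the Nfkb2 window the match GGGACTTTCC began at position -20 from the start. In that of Nfkbia the minus strand read GGGAATTTCC, with its leftmost base at -31. Tnfaip3 held 3 matches, GGGACACCCC at -170 on the plus strand and GGGACTTTCC at -67 and GGGGATTTCC at -55 on the minus strand. Tnfaip3 was the gene with the most separate matches, since those of Rel lay over each other from -82 onward. The string GGGAATTTCC of Nfkbia also occurred in Nfkb1 at position 4 after the start and in Nfkbiz at -13, each on the strand of the gene, and Nfkbie held GGGGGATTCC at -164. The GC box GGGCGG, searched on both strands, was found in 7 of the 9 windows, against 33.1% of all promoter windows. The 9 windows held 57.0% to 77.3% G and C, against a median of 51.7% over all windows. The GC box share was not matched for this difference. A match is a run of letters and not a shown binding site, and its absence says only that these letters are not in this window.

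Each library held 16953309 to 18237111 reads, 99.9% of them in listed genes. The targeted gene was lowered in every siECHS1 library. Echs1 averaged 0.516 ± 0.112 FPKM in siECHS1 and 1.33 ± 0.244 FPKM in siNC, and LOC100911186, which shares its protein match, averaged 3.38 ± 0.385 FPKM in siECHS1 and 6.61 ± 0.782 FPKM in siNC (SD, n = 4 each). Echs1 rested on only 11 to 45 reads a library and averaged under 1 FPKM over all libraries, so it was not among the genes tested below. LOC100911186 rested on 82 to 191 reads a library. The split of reads between these rows is uncertain. Cardiomyocyte markers were abundant, with a summed level of 6920 to 7732 FPKM in siECHS1 and 6607 to 7035 FPKM in siNC. Fibroblast markers were also abundant, at 3041 to 3320 FPKM in siECHS1 and 2331 to 2505 FPKM in siNC, so the cultures were not cardiomyocytes alone. Of the 11 macrophage and leukocyte markers found, 7 averaged under 1 FPKM, Ptprc and Adgre1 among them. The others, Cd68, Csf1r, Lyz2 and Tyrobp, averaged above 1 FPKM.

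Rela and Relb fell, and the other 8 genes did not pass the test. FPKM, which scale fragments by gene length and library total, were compared as log2(FPKM + 1) by limma over the 12616 genes that averaged 1 FPKM or more, with Benjamini-Hochberg adjustment and a threshold of 0.05. That scale understates the change of low genes. All 10 genes passed the filter, and none of them rose. Of all tested genes 21.0% were called, with 8.83% higher and 12.2% lower, so that 2 of 10 is close to the share of all genes. The balance of directions depended on the scaling, since median-of-ratios scaling called 1288 genes higher and 1242 lower, against 1114 and 1541 with the FPKM as deposited. Of the 10 changes 7 were below 0 and 3 above, and their median was -0.06, against -0.01 for all tested genes. Whether each replicate was its own culture or animal is not in the labels. The p-values therefore measure only how far these samples spread, and that spread may be technical.

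Rela encodes the transactivating subunit of the classical NF-kB dimer (ENSRNOG00000030888, chromosome 1, 220992770 to 221003249, plus strand, as the table gives it). Its 4 siECHS1 libraries held 41.0, 43.5, 42.0 and 42.4 FPKM, and its 4 siNC libraries 52.9, 54.3, 53.2 and 56.1 FPKM. Every siECHS1 library lay below every siNC library, and the gap between the groups was wider than the range within either. Rela averaged 42.2 ± 1.05 FPKM in siECHS1 and 54.1 ± 1.47 FPKM in siNC (SD, n = 4 each), 78.1% of the siNC level. The log2 change was -0.35 (SE 0.03, 95% interval -0.43 to -0.27), with a limma adjusted p of 0.000148. Permuting the group names exactly, in all 70 assignments and two-sided, gave p = 0.0286, the smallest that 4 against 4 allows. The level rested on 1794 to 2394 reads a library. By its p Rela stood at rank 89 of the 12616 genes tested. In bulk RNA, fewer cells of a type and less RNA per cell cannot be told apart, here and for every gene that follows.

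Relb encodes the transactivating partner of the alternative pathway, which works mainly with the product of Nfkb2 (ENSRNOG00000033235, chromosome 1, 80517411 to 80544825, minus strand). It had 22.0, 25.5, 23.2 and 22.0 FPKM in the siECHS1 libraries, against 26.0, 28.5, 27.8 and 29.6 FPKM in the siNC libraries. The groups did not overlap, but the gap was narrow, since the highest siECHS1 library came within 1 FPKM of the lowest siNC library. The means were 23.2 ± 1.68 FPKM in siECHS1 and 28.0 ± 1.49 FPKM in siNC (SD, n = 4 each), and the level in siECHS1 was 82.9% of that in siNC. The log2 change was -0.26 (SE 0.06, 95% interval -0.39 to -0.14) with a limma adjusted p of 0.00899, and the exact permutation p was again 0.0286. Rela and Relb were the 2 of the 10 genes whose groups did not overlap, a pattern shown by 25.2% of all tested genes.

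Rel encodes c-Rel, the subunit best known from lymphoid cells (ENSRNOG00000054437, chromosome 14, 108491069 to 108509892, minus strand). It was the lowest of the 10 genes, with 2.09, 2.45, 1.81 and 1.73 FPKM in siECHS1 and 1.89, 2.00, 1.68 and 1.52 FPKM in siNC. The groups overlapped, and each library held only 47 to 79 reads of it. The log2 change was 0.12 with a wide 95% interval, -0.09 to 0.33 (limma adjusted p = 0.418). Markers of T and B lymphocytes were near background in these cultures, with 0 of 7 above the 1 FPKM filter and a summed level of 1.14 to 1.93 FPKM in siECHS1 and 1.00 to 1.69 FPKM in siNC.

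The 2 genes of DNA-binding partners that lack a transactivation domain did not pass the test. Nfkb1 encodes the precursor that pairs with Rela once processed (ENSRNOG00000023258, chromosome 2, 240773456 to 240866689, minus strand). It had 35.7, 35.0, 37.0 and 35.3 FPKM in siECHS1 and 36.2, 35.3, 36.9 and 33.3 FPKM in siNC, and the siECHS1 range lay almost wholly inside the siNC range. Its log2 change was 0.01 (SE 0.04, 95% interval -0.08 to 0.10). Nfkb2 encodes the precursor that pairs with Relb (ENSRNOG00000019311, chromosome 1, 266053002 to 266059256, plus strand). It had 33.4, 33.0, 35.4 and 32.7 FPKM in siECHS1 and 32.9, 34.5, 35.6 and 36.3 FPKM in siNC, with overlapping groups and a log2 change of -0.05 (95% interval -0.14 to 0.04). Limma gave adjusted p-values of 0.841 for Nfkb1 and 0.448 for Nfkb2. The lower bounds of these intervals lie above the upper bound for Rela, so a fall of Rela's size lies outside both of them.

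**Figure D1:**
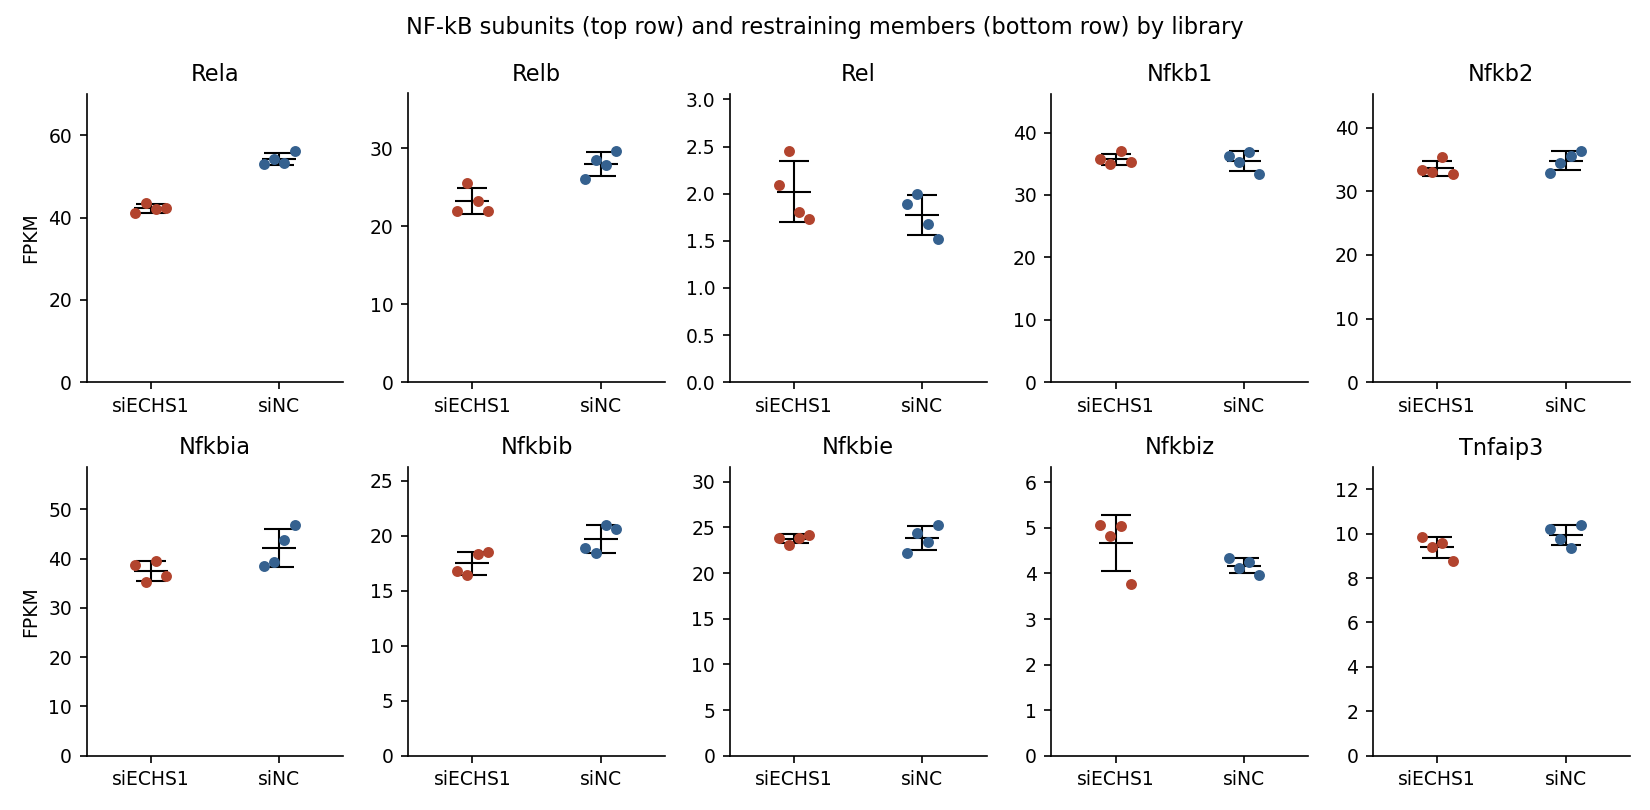
FPKM of the 5 subunit genes (top row) and of the IkB family genes and Tnfaip3 (bottom row, titled restraining members) in each library. In each panel siECHS1 is left and siNC right, with every axis starting at 0. Points are libraries, and the bars show the mean and SD of 4 libraries. Rela at 41.0 to 43.5 FPKM in siECHS1 and 52.9 to 56.1 FPKM in siNC and Relb at 22.0 to 25.5 FPKM in siECHS1 and 26.0 to 29.6 FPKM in siNC are separated, and the other 8 panels overlap.

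Within each library, Rela was also lower in siECHS1 relative to Nfkb1 and to the summed subunits. Rela per Nfkb1 was 1.15, 1.24, 1.13 and 1.20 in the siECHS1 libraries, against 1.46, 1.54, 1.44 and 1.69 in the siNC libraries. Relb per Nfkb2 was 0.659, 0.774, 0.657 and 0.672 in siECHS1, against 0.792, 0.825, 0.781 and 0.816 in siNC. In both ratios every siECHS1 library lay below every siNC library. Rela made up 30.9% ± 0.673 of the summed FPKM of the 5 subunits in siECHS1 and 35.1% ± 0.630 in siNC (SD, n = 4 each), and that sum was 137 ± 3.07 FPKM in siECHS1 and 154 ± 2.94 FPKM in siNC. These ratios restate the Rela and Relb values and were given no test. Relb per Rela overlapped between the groups, at 0.549 ± 0.0292 in siECHS1 and 0.517 ± 0.0164 in siNC.

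**Figure D2:**
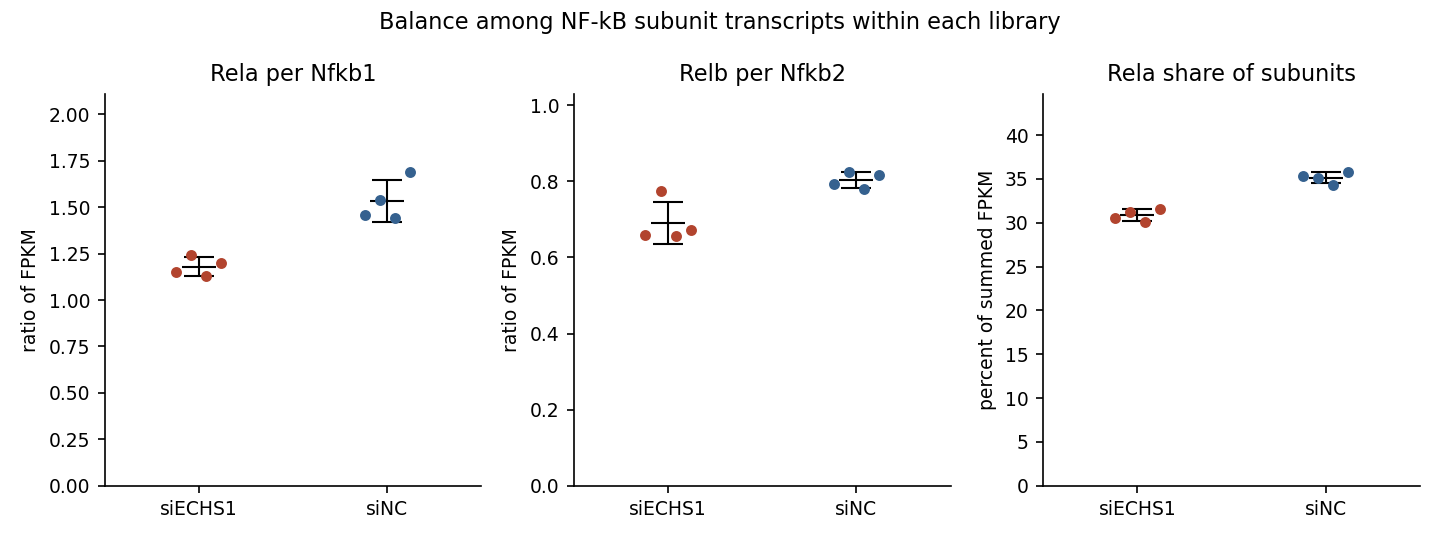
Rela per Nfkb1 and Relb per Nfkb2 (ratios of FPKM) and the percent of the summed FPKM of the 5 subunits that is Rela, by library, siECHS1 left and siNC right. Points are libraries and bars the mean and SD of 4. All 4 siECHS1 libraries lie below all 4 siNC libraries in each panel, as in Rela per Nfkb1, with 1.18 ± 0.0497 in siECHS1 and 1.53 ± 0.113 in siNC.

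Of the IkB family genes, none passed the test, though Nfkbia and Nfkbib had negative changes with unadjusted p under 0.05 by limma. Nfkbia encodes IkB alpha, the inhibitor that NF-kB itself induces to end a response (ENSRNOG00000007390, chromosome 6, 76267228 to 76270457, minus strand). It had 38.8, 35.3, 39.6 and 36.5 FPKM in siECHS1, against 38.6, 39.3, 43.9 and 46.9 FPKM in siNC. The siNC libraries ranged widely, and the 2 lower ones fell within the siECHS1 range. Its log2 change was -0.16 (SE 0.06, 95% interval -0.30 to -0.02), with an unadjusted p of 0.0306 and an adjusted p of 0.103 by limma. Nfkbib encodes IkB beta, which also retains Rela-containing dimers (ENSRNOG00000020063, chromosome 1, 86941074 to 86948845, minus strand). It had 16.8, 16.4, 18.3 and 18.5 FPKM in siECHS1, against 18.9, 18.4, 21.0 and 20.6 FPKM in siNC, so that the groups overlapped by a small margin. Its log2 change was also -0.16 (SE 0.06, 95% interval -0.29 to -0.04), with an unadjusted p of 0.0169 and an adjusted p of 0.0686 by limma.

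Nfkbie encodes IkB epsilon (ENSRNOG00000019907, chromosome 9, 17828408 to 17835240, minus strand). Its libraries held 23.9, 23.1, 23.9 and 24.2 FPKM in siECHS1 and 22.2, 24.4, 23.4 and 25.3 FPKM in siNC, with equal means of 23.8 FPKM. The log2 change was -0.00 with a 95% interval from -0.10 to 0.10. The summed level of Nfkbia, Nfkbib and Nfkbie was 78.9 ± 2.90 FPKM in siECHS1 and 85.7 ± 5.98 FPKM in siNC (SD, n = 4 each), with overlapping groups. Set against the summed Rela, Relb and Rel, these IkB transcripts stood at 1.22, 1.05, 1.22 and 1.20 in the siECHS1 libraries and at 0.986, 0.969, 1.07 and 1.06 in the siNC libraries. Of the siECHS1 libraries, replicate 2 was the one that fell among the siNC values.

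Nfkbiz encodes IkB zeta, a nuclear IkB protein that helps switch on a subset of NF-kB targets (ENSRNOG00000031163, chromosome 11, 47243342 to 47271487, plus strand). It had 5.07, 4.82, 5.04 and 3.77 FPKM in siECHS1, against 4.34, 4.13, 4.26 and 3.96 FPKM in siNC. In siECHS1, 3 libraries lay above all siNC libraries, and replicate 4 lay below them all. The log2 change was 0.13 (SE 0.08, 95% interval -0.05 to 0.31, limma adjusted p = 0.306). Without siECHS1 replicate 4 the change was 0.21 and the adjusted p was 0.0368, within a range of 0.0368 to 0.531 over the alternatives, so the call for Nfkbiz turned on that library. Tnfaip3 encodes a ubiquitin-editing enzyme that shuts off signalling upstream of the IkB kinase (ENSRNOG00000049517, chromosome 1, 14402913 to 14412807, minus strand). It had 9.87, 9.40, 9.56 and 8.75 FPKM in siECHS1 and 10.2, 9.75, 9.37 and 10.4 FPKM in siNC, with overlapping groups and a log2 change of -0.07 (95% interval -0.19 to 0.05, limma adjusted p = 0.385).

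**Figure D3:**
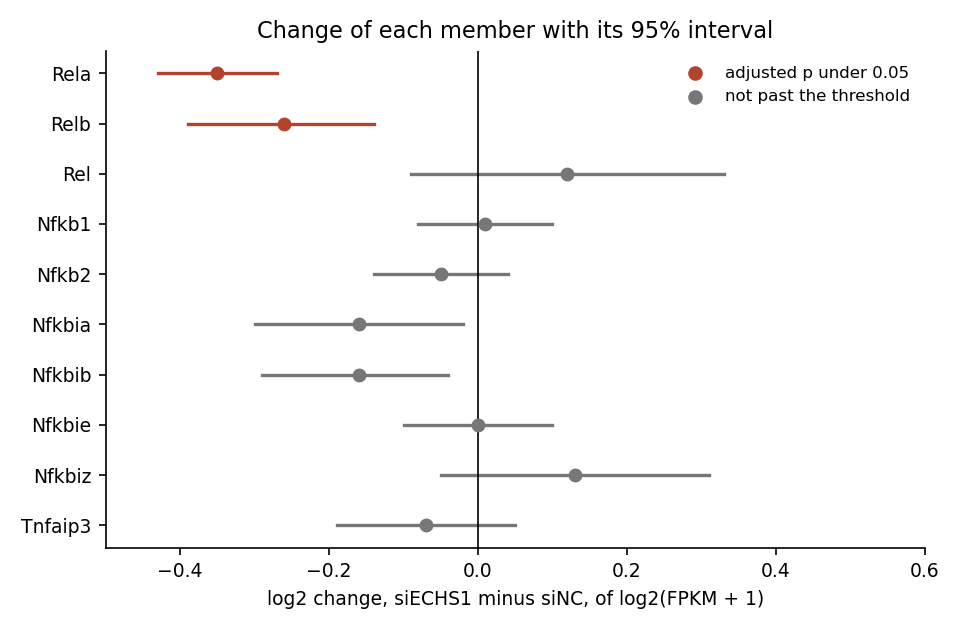
Log2 change of each gene, siECHS1 minus siNC, on the log2(FPKM + 1) scale. Points are limma estimates and lines 95% intervals. Rela at -0.35 and Relb at -0.26 passed an adjusted p of 0.05, the intervals of Nfkbia and Nfkbib lie below 0 without passing it, and those of the other 6 genes include 0.

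Because FPKM is a level per length, the genes can be ordered within each group. In siECHS1 the order was Rela, Nfkbia, Nfkb1, Nfkb2, Nfkbie, Relb, Nfkbib, Tnfaip3, Nfkbiz and Rel. The ranges of Nfkbia and Nfkb1, of Nfkb1 and Nfkb2 and of Nfkbie and Relb overlapped there, and the other neighbours were apart. In siNC the order was Rela, Nfkbia, Nfkb1, Nfkb2, Relb, Nfkbie, Nfkbib, Tnfaip3, Nfkbiz and Rel, and Nfkb1 and Nfkb2 were the one neighbouring pair that overlapped. Relb and Nfkbie thus changed places, with Relb at 23.2 FPKM in siECHS1 and 28.0 FPKM in siNC and Nfkbie at 23.8 FPKM in both. Of the 10 genes 5 lie on chromosome 1, Rela, Relb, Nfkb2, Nfkbib and Tnfaip3. None of the 10 overlaps another listed row or shares its protein match. None of the 7 genes with a kB match in the promoter window was called, and of the 2 without a match Rela was called lower. With 21.0% of all tested genes called, counts this small cannot tie a call to a match. Relb, the other gene called, had no window, and a link between match and call was not tested.

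For Rela and Relb the tested genes with the most similar pattern were ranked by Pearson r of log2(FPKM + 1) over the 8 libraries, which share their group difference. For Rela these were Pias4 (0.993), Ptov1 (0.992) and Prkaca (0.991). Pias4, a SUMO ligase, averaged 10.5 ± 0.173 FPKM in siECHS1 and 14.7 ± 0.638 FPKM in siNC. Ptov1 averaged 51.8 ± 2.16 FPKM in siECHS1 and 74.6 ± 2.60 FPKM in siNC, and Prkaca, a catalytic subunit of protein kinase A, 77.0 ± 1.89 FPKM in siECHS1 and 92.8 ± 1.26 FPKM in siNC (SD, n = 4 each). All of these had a lower mean in siECHS1 than in siNC. With the group means taken off, other genes headed the Rela list, Ccnf (0.975), RGD1564801 (0.972) and Gpt (0.965). For Relb the closest were Slc44a2 (0.989), Glul (0.981) and Tomm22 (0.978), and with the group means taken off Tk2 (0.967), Slc44a2 (0.960) and Glul (0.958). Slc44a2 and Glul thus followed Relb within the groups as well. Each r was among the 3 highest over the genes with a symbol among the 12616 tested, from only 8 libraries. These are descriptions with no test.

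The rest of the pathway was read through 4 lists of 124 genes, of which 101 were tested and 37 called, most of them in the target list (17 higher and 8 lower). Of all tested genes 21.0% were called, and each list's share is read against that. Among ligands and receptors 1 of 17 tested genes rose and 1 fell (11.8% called, against 21.0% of all tested genes, median log2 change 0.04). Il1r1, the signalling receptor of interleukin-1, had 54.2, 54.0, 57.7 and 49.4 FPKM in siECHS1, against 42.0, 40.1, 41.9 and 36.9 FPKM in siNC. The groups were far apart, with a log2 change of 0.41 (SE 0.06, limma adjusted p = 0.000698). Nod1, an intracellular sensor of bacterial peptidoglycan, averaged 12.7 ± 0.615 FPKM in siECHS1 and 14.7 ± 0.906 FPKM in siNC, a log2 change of -0.20 (limma adjusted p = 0.0261). The receptor Tnfrsf1a of tumour necrosis factor averaged 109 ± 4.04 FPKM in siECHS1 and 102 ± 3.68 FPKM in siNC (limma adjusted p = 0.116). The ligands Tnf and Il1b were scarce and below the filter. Tnf averaged 0.348 ± 0.160 FPKM in siECHS1 and 0.189 ± 0.0848 FPKM in siNC, and Il1b 0.251 ± 0.111 FPKM in siECHS1 and 0.345 ± 0.184 FPKM in siNC. Not all ligands were scarce, since Il33 averaged 16.3 ± 1.44 FPKM in siECHS1 and 15.0 ± 0.879 FPKM in siNC (limma adjusted p = 0.268).

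Among 30 tested adaptors, kinases and ubiquitin ligases between receptor and IkB, 2 rose and 6 fell. The share called, 26.7%, was near the 21.0% of all tested genes, and the median log2 change was -0.07, against -0.01 over all tested genes. Tradd, the adaptor of the tumour necrosis factor receptor, had 9.86, 11.3, 11.9 and 10.9 FPKM in siECHS1, against 8.10, 6.55, 7.87 and 7.60 FPKM in siNC. Its groups did not overlap, and the log2 change was 0.49 (SE 0.07, limma adjusted p = 0.00122). The Tradd row overlaps RGD621098, so reads could be shared. Sharpin, a subunit of the linear ubiquitin ligase, had 27.3, 28.2, 26.6 and 30.1 FPKM in siECHS1, against 31.4, 31.8, 32.4 and 33.5 FPKM in siNC, also without overlap. Its log2 change was -0.20 (SE 0.04, limma adjusted p = 0.0110). Rnf31, the catalytic subunit of the same ligase, averaged 8.80 ± 0.441 FPKM in siECHS1 and 10.3 ± 0.714 FPKM in siNC (-0.21, adjusted p = 0.0315). Myd88, the adaptor of Toll-like and interleukin-1 receptors, averaged 27.5 ± 1.73 FPKM in siECHS1 and 31.0 ± 0.911 FPKM in siNC (-0.17, adjusted p = 0.0326). The kinase Irak4 that it recruits averaged 5.64 ± 0.290 FPKM in siECHS1 and 6.48 ± 0.164 FPKM in siNC (-0.17, adjusted p = 0.0433). Bcl10, the signalling partner of CARD proteins, and Btrc, the ubiquitin ligase subunit that recognises phosphorylated IkB, also fell (-0.18, adjusted p = 0.0427, and -0.19, adjusted p = 0.0292). Irak3, a kinase relative that dampens signalling, rose to 16.9 ± 0.411 FPKM in siECHS1, against 15.3 ± 0.296 FPKM in siNC (0.13, adjusted p = 0.0371).

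The genes of the IkB kinase itself did not pass the test. Ikbkb, a catalytic subunit, averaged 14.8 ± 0.707 FPKM in siECHS1 and 15.7 ± 0.770 FPKM in siNC (limma adjusted p = 0.282). Chuk, the other catalytic subunit, averaged 7.76 ± 0.521 FPKM in siECHS1 and 7.25 ± 0.574 FPKM in siNC (adjusted p = 0.381), and the scaffold Ikbkg 11.5 ± 1.96 FPKM in siECHS1 and 12.4 ± 0.811 FPKM in siNC (adjusted p = 0.518). Map3k14, the kinase that starts the alternative pathway, averaged 2.59 ± 0.143 FPKM in siECHS1 and 2.75 ± 0.199 FPKM in siNC (adjusted p = 0.567). These 4 were chosen for their place in the pathway after their values were seen, as were Tnfrsf1a, Tnf, Il1b and Il33. Of 15 tested IkB-like and restraining genes beyond the 10, 1 rose and 2 fell (20.0% called, about the share of all tested genes, median log2 change -0.05). Tnip1, a partner of Tnfaip3 and the most abundant of those called, averaged 71.8 ± 2.51 FPKM in siECHS1 and 80.6 ± 2.13 FPKM in siNC (-0.16, SE 0.04, limma adjusted p = 0.00963). Tollip, a dampener of Toll-like signalling, fell to 25.3 ± 0.498 FPKM in siECHS1, against 28.2 ± 1.49 FPKM in siNC (-0.15, adjusted p = 0.0324). Tax1bp1, an adaptor of Tnfaip3, rose to 33.4 ± 1.32 FPKM in siECHS1, against 30.4 ± 1.11 FPKM in siNC (0.13, adjusted p = 0.0472).

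Several of these calls lay close to the threshold. Il1r1, Tradd, Sharpin and Tnip1 passed under each of the 16 alternatives, which include leaving out each library. The other 9 named genes of these 3 lists lost the call in some alternatives, while their log2 changes stayed between -0.25 and -0.13 for those that fell and between 0.12 and 0.16 for those that rose. Irak4 lost it without any of the 8 (adjusted p 0.0505 to 0.115), and Irak3 without any but siECHS1 replicate 4 (0.0637 to 0.0977). Nod1 kept it only without siECHS1 replicate 2 or siNC replicate 1 (otherwise 0.0554 to 0.0745), Btrc without siECHS1 replicate 3 or siNC replicate 1 (0.0542 to 0.0714) and Rnf31 without siECHS1 replicate 4 or siNC replicate 1 (0.0565 to 0.0852). Bcl10 kept it without siECHS1 replicate 2 or 4 (otherwise 0.0524 to 0.110), Tollip without siECHS1 replicate 3 or siNC replicate 4 (0.0619 to 0.0879) and Tax1bp1 without siECHS1 replicate 3 or siNC replicate 1 (0.0814 to 0.129). Myd88 lost it in 5 of the 8 (0.0721 to 0.0893) and kept it without siECHS1 replicate 3 or 4 or siNC replicate 1. With all libraries kept, Myd88, Irak4 and Bcl10 each lost the call in 4 other settings, Rnf31 in 3, Tax1bp1 in 2 and Tollip and Btrc in 1 each. Median-of-ratios scaling ended the calls for Myd88 (adjusted p = 0.0667), Irak4 (0.0637), Rnf31 (0.0532) and Bcl10 (0.0720).

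**Figure D4:**
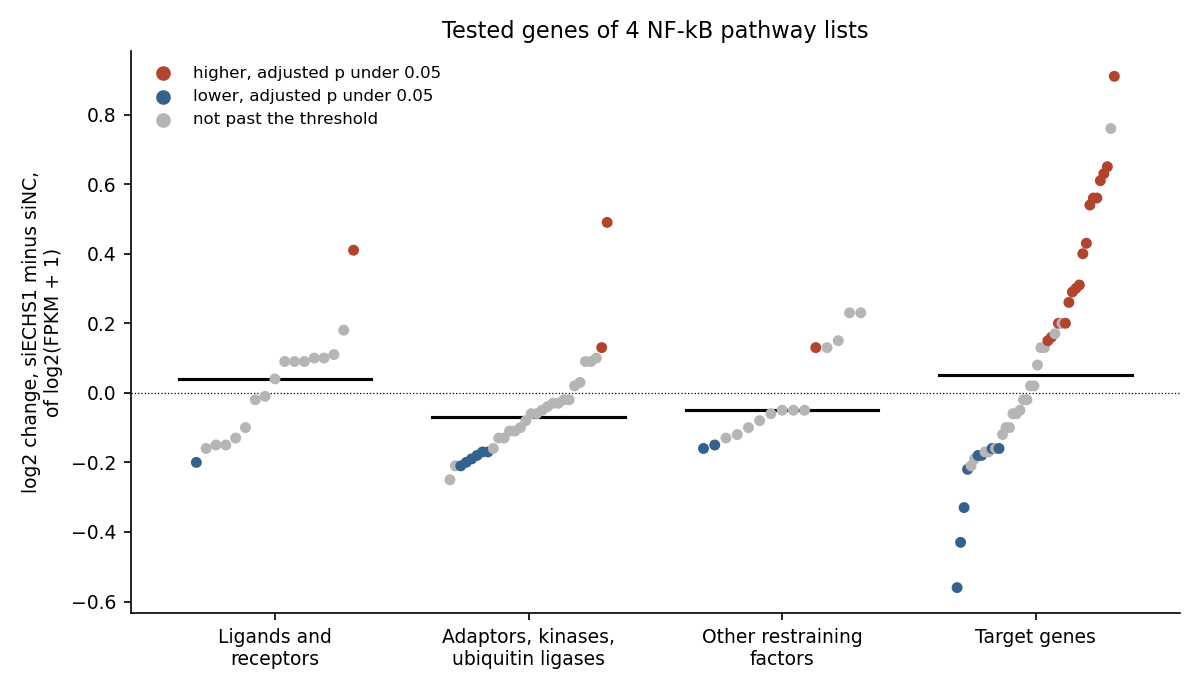
Log2 change, siECHS1 minus siNC, on the log2(FPKM + 1) scale, of each tested gene in 4 pathway lists. Points are genes, coloured by their limma call, and the black lines are list medians. Most genes of the first 3 lists lie within a narrow band around 0, with medians of 0.04, -0.07 and -0.05, while target genes reach from -0.56 to 0.91.

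Target genes were called more often than the genes of the other 3 lists, a difference that was not tested. Of 46 tested genes that are known targets of NF-kB in human or mouse, 17 rose and 8 fell, 54.3% called against 21.0% of all tested genes, with a median log2 change of 0.05. By direction 37.0% of the targets rose, against 8.83% of all genes, and 17.4% fell, against 12.2%. This list was drawn up with earlier results of these data known, and many of its genes answer to other factors too. Of the 55 targets found, tested or not, 11 stand in another of the lists as well.

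Among the targets called, the largest rise was that of Lcn2, the siderophore-binding protein lipocalin 2. It had 817, 879, 879 and 933 FPKM in siECHS1, against 441, 491, 458 and 470.4 FPKM in siNC, a ratio of means of 1.89. The log2 change was 0.91 (SE 0.05, limma adjusted p = 3.33e-06). Next among the targets called were chemokines that draw monocytes and T cells. A larger change of the transcription factor gene Cebpb (0.76) did not pass (limma adjusted p = 0.0658), with overlapping groups. Ccl7 had 70.9, 79.3, 75.0 and 79.1 FPKM in siECHS1, against 43.9, 51.4, 52.5 and 45.5 FPKM in siNC (0.65, SE 0.06, limma adjusted p = 0.000129). Ccl5 had 23.4, 26.6, 24.3 and 23.9 FPKM in siECHS1, against 17.1, 17.5, 16.7 and 11.6 FPKM in siNC (0.63, SE 0.11, limma adjusted p = 0.00310). Cxcl10 had 81.8, 82.4, 71.5 and 95.6 FPKM in siECHS1, against 50.3, 52.4, 56.2 and 55.8 FPKM in siNC (0.61, SE 0.08, limma adjusted p = 0.000429), and its row overlaps Art3. In each of these 4 genes all siECHS1 libraries lay above all siNC libraries. The cytokine Il6, chosen after its values were seen, averaged 3.64 ± 0.449 FPKM in siECHS1 and 2.22 ± 0.553 FPKM in siNC (0.54, limma adjusted p = 0.0116) on 30 to 80 reads a library.

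Other targets fell. Selp, the adhesion molecule P-selectin, had 3.31, 4.02, 3.43 and 3.51 FPKM in siECHS1, against 5.12, 6.21, 5.60 and 6.10 FPKM in siNC (-0.56, SE 0.07, limma adjusted p = 0.000631). Serpinb9, an inhibitor of granzyme B, had 50.7, 54.2, 53.3 and 51.6 FPKM in siECHS1, against 70.7, 71.2, 73.1 and 68.0 FPKM in siNC (-0.43, SE 0.04, limma adjusted p = 6.80e-05). Because 2 other rows have the same protein match, the level of Serpinb9 is uncertain. Ccl20, a chemokine for lymphocytes and dendritic cells, had 10.9, 10.5, 9.73 and 9.82 FPKM in siECHS1, against 12.1, 13.9, 14.6 and 12.1 FPKM in siNC (-0.33, SE 0.07, limma adjusted p = 0.00731). Bcl2l1, which encodes the survival protein Bcl-xL, averaged 32.5 ± 1.31 FPKM in siECHS1 and 38.0 ± 0.873 FPKM in siNC (-0.22, SE 0.04, limma adjusted p = 0.00329), and its row overlaps a pseudogene. No siECHS1 library of these 4 genes reached the siNC range. The adhesion gene Icam1, chosen after its values were seen, averaged 114 ± 2.77 FPKM in siECHS1 and 122 ± 3.81 FPKM in siNC and did not pass (limma adjusted p = 0.0694).

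**Figure D5:**
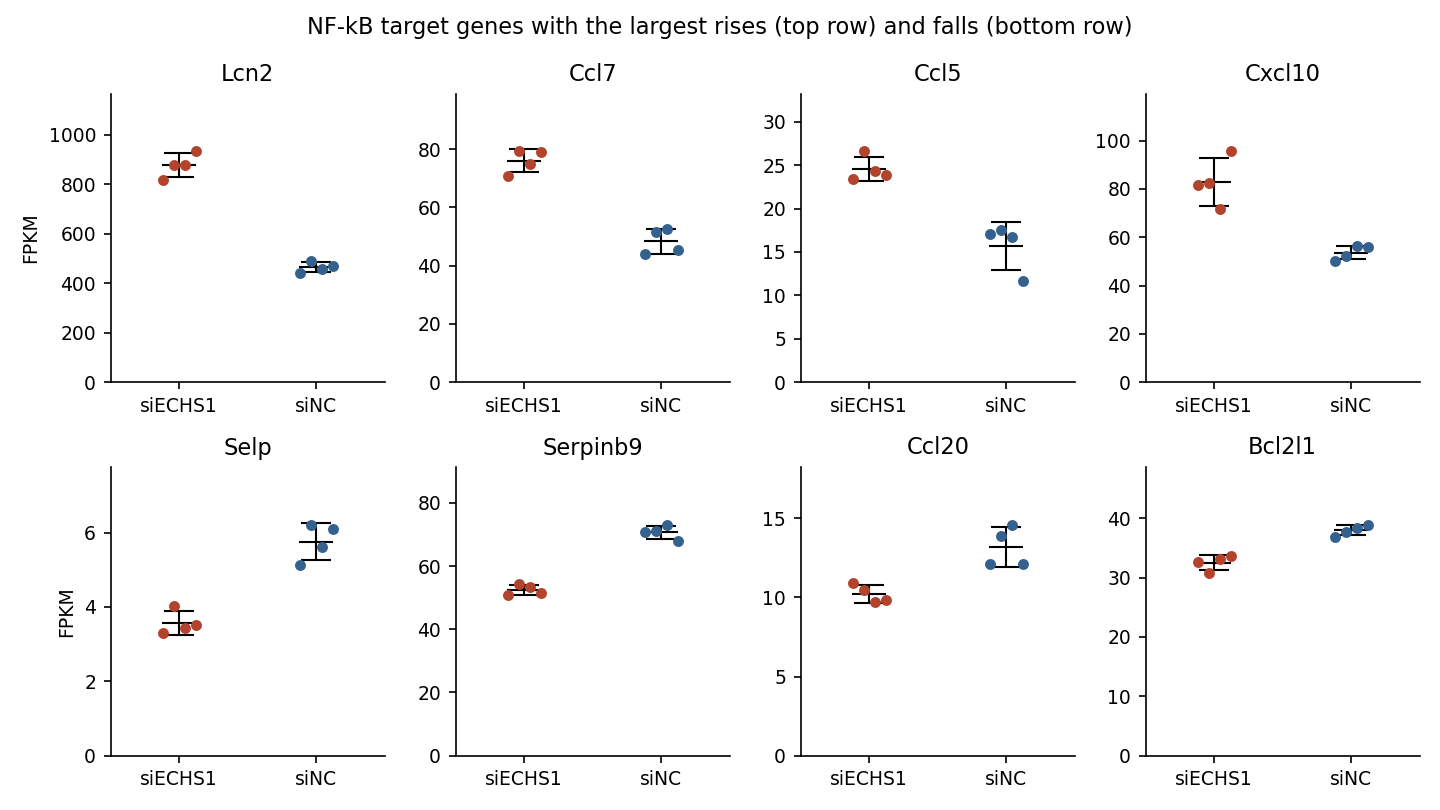
FPKM by library of the 4 target genes with the largest rises (top row) and the 4 with the largest falls (bottom row) among those called, siECHS1 left and siNC right, axes from 0. Points are libraries, and bars show the mean and SD of 4. Lcn2 averages 877 ± 47.6 FPKM in siECHS1 and 465 ± 21.0 FPKM in siNC, and no panel has overlapping groups.

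Across the 16 alternatives 11 of the targets stayed higher and 6 stayed lower in every fit. Those that stayed higher were Ccl7, Ccl5, Cxcl10, Cx3cl1, Lcn2, C3, Sod2, Hmox1, Mmp9, F3 and Ccnd1, and those that stayed lower were Ccl20, Csf1, Bcl2l1, Gadd45b, Tnip1 and Serpinb9. Selp was lower in all 15 alternatives that tested it, and the filter at 5 FPKM left it out. That filter also left out the risen targets Cxcl11, Il6, Cxcl3 and Il12a, so they could not be counted as higher in every fit. Their calls in the other alternatives are not given here. A kB match stood in the promoter window of 4 of the 10 risen targets that had a window (Cxcl10, Cxcl11, Il6 and Lcn2), in 3 of 6 that fell (Ccl20, Irf1 and Tnip1) and in 4 of 15 that were not called. Matches were thus present in targets of either direction.

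Markers of other cells that make or answer NF-kB signals were set beside these results. The summed macrophage and leukocyte markers were 22.5 to 25.9 FPKM in siECHS1 and 23.1 to 25.0 FPKM in siNC, with Cd68 higher at 11.3 ± 0.776 FPKM in siECHS1 against 8.88 ± 0.241 FPKM in siNC and Csf1r lower at 6.89 ± 0.236 FPKM in siECHS1 against 9.12 ± 0.421 FPKM in siNC, and 2 of the 4 tested not called. Endothelial markers summed to 40.9 to 44.0 FPKM in siECHS1 and 38.8 to 43.0 FPKM in siNC, and by limma 0 of 7 passed. Among fibroblast markers, Col1a1, Dcn and Postn were higher, Lum was lower and 3 of the 7 tested were not called. Smooth muscle and pericyte markers summed to 4150 to 4513 FPKM in siECHS1 and 4350 to 4448 FPKM in siNC, with Acta2 higher and Tagln and Notch3 lower among 8. Of the 9 cardiomyocyte markers Myh7 and Nppa were higher and Myh6, Tnni3 and Myl7 lower. No marker row was listed at 0 in every library. The part of these cell types in the changes of Rela, Relb and the target genes was not tested.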

How the data were processed

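The authors deposited FPKM values for 21017 Ensembl rat genes in 8 libraries, made from 1 µg of total RNA with an Illumina TruSeq kit per the labels' protocols. Bowtie 0.12.2 and the builds Rnor_6.0 and mm8 appear in the submitters' processing notes without a role. Not given in the sources used here are the counting tool, annotation and strand setting, and overlapping genes may share reads. Gene coordinates are the table's own. Low FPKM values step in whole reads, from which reads were recovered for all genes (100.0% of values whole within 0.01 of a read). These give the depths stated. Libraries of 1 group differed by more than counting noise (chi-square per degree of freedom 2.70 to 6.62).

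The values log2(FPKM + 1) were compared between siECHS1 and siNC by limma 3.58.1 (R 4.3.3) with a variance trend, two-sided, over genes averaging 1 FPKM or more and with Benjamini-Hochberg adjustment. Alternatives were a pseudocount of 0.1, no filter or a filter at 5 FPKM, median-of-ratios and quantile scaling, no trend, a replicate block, limma-voom on the recovered reads, and leaving out each library. The members and gene lists were chosen with earlier results of these data known. The named genes are the 10 members and the called genes of each list, limited to the 4 largest changes by direction where more than 8 were called. Some genes named outside this rule are marked in the text as chosen after their values were seen. Others are not marked, such as Cebpb and the targets listed by their hold across alternatives or by a promoter match. List symbols matching no row (Tlr1, Ly96, Ticam1, Rnf11, Nos2, Fth1, Cfb and Saa3) were not analysed here. Promoter windows are RefSeq's for GRCr8 and were matched by gene symbol. Tables and figures used Python 3.11.15, pandas 2.3.3 and matplotlib 3.10.9.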

Additional observations from a re-analysis of the deposited data

How the results depend on the processing

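Rela and Relb stayed lower and past the threshold in all 16 alternatives, Rela at log2 changes of -0.36 to -0.33 (limma adjusted p 1.44e-05 to 0.00109) and Relb at -0.31 to -0.24 (0.0038 to 0.029). The number of the 10 genes called was 2 or 3, of pathway list genes 25 to 33 with a library left out and 29 to 41 otherwise, and of target genes 14 to 17 higher and 7 to 10 lower. Among all tested genes 1898 to 2667 were called with a library left out and 2177 to 2952 otherwise. With the replicate block 2952 genes were called, and Nfkbib passed (-0.16, adjusted p = 0.0175, range over alternatives 0.0175 to 0.175). The labels do not say whether replicate numbers pair the samples, and the values do not settle it. Correlations of same-numbered deviations were 0.173, -0.051, 0.007 and 0.075 for replicates 1 to 4. The siECHS1 libraries 1 and 4 correlated best with their own number, and libraries 2 and 3 did not. Changes near 0 turned sign. Nfkb1 was -0.0017 without siECHS1 replicate 3 and -0.01 without siNC replicate 4. With a library left out, Nfkb1 ranged from -0.01 to 0.03 and Nfkbie from -0.03 to 0.03. Nfkbie was 0.02 under median-of-ratios scaling, 0.01 under quantile normalization and without siECHS1 replicate 2 or siNC replicate 2, and 0.03 without siNC replicate 4. The cause was not tested. Under the filter at 5 FPKM Rel and Nfkbiz were left out. So were other named genes, among them Selp, Cxcl11, Il6, Map3k14, Ccl6 and Ccl17. Rel rested on 47 to 79 reads a library, and whether its wide interval comes from depth was not tested.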

Other observations

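Other genes annotated to cytokine and NF-kB responses were read through the Gene Ontology terms of the table, chosen after the values were seen. Some term cells were blank in the copy used here. Of 32 tested genes of the cellular response to interleukin-1, 7 rose and 8 fell (46.9% called), and of 43 genes of the response to tumor necrosis factor 10 rose and 5 fell (34.9%), against 21.0% of all tested genes. Among the genes called in these terms the largest change was that of the chemokine gene Ccl17, which had 0.392, 0.389, 0.405 and 0.985 FPKM in siECHS1, against 2.33, 2.30, 2.69 and 1.62 FPKM in siNC (log2 change -1.08, limma adjusted p = 0.000685), on only 2 to 13 reads a library. The chemokine genes Ccl6 and Ccl9, paralogs on chromosome 10 whose reads could be split between them, moved in opposite directions. Ccl6 had 3.70, 2.99, 3.37 and 3.32 FPKM in siECHS1, against 1.32, 1.59, 1.27 and 1.33 FPKM in siNC (log2 change 0.87, limma adjusted p = 8.75e-05). Ccl9 had 10.3, 10.2, 11.5 and 11.4 FPKM in siECHS1, against 16.3, 17.2, 15.1 and 16.6 FPKM in siNC (-0.55, limma adjusted p = 0.000166). Chi3l1, of the interleukin-1 term, averaged 45.9 ± 3.51 FPKM in siECHS1 and 36.6 ± 1.85 FPKM in siNC (0.32, limma adjusted p = 0.00369). Of 52 tested genes of the cellular response to lipopolysaccharide, 11 rose and 6 fell (32.7% called). For the cellular response to interferon-gamma, 5 of 20 rose and 3 fell (40.0%), and for the response to interferon-gamma 1 of 9 rose and 1 fell (22.2%). The interferon-inducible GTPase gene Gbp5, of the cellular response to interferon-gamma, averaged 14.3 ± 0.582 FPKM in siECHS1 and 10.4 ± 1.17 FPKM in siNC (0.43, limma adjusted p = 0.00231).

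Of 65 tested genes that promote IkB kinase and NF-kB signalling, 5 rose and 11 fell (24.6% called, median log2 change -0.06). Of 26 that restrain NF-kB activity, 2 rose and 3 fell (19.2%), against 21.0% of all tested genes. Among them Pias4, also the gene most like Rela across libraries, was lower by a log2 change of -0.44 (limma adjusted p = 0.000157). Of 11 tested genes that restrain IkB kinase and NF-kB signalling, 0 rose and 2 fell (18.2% called). Of these the deubiquitinase gene Usp10 averaged 17.8 ± 0.526 FPKM in siECHS1 and 22.1 ± 1.16 FPKM in siNC (-0.30, limma adjusted p = 0.00144). Of 13 tested genes annotated to IkB kinase and NF-kB signalling itself, 1 rose and 1, Relb, fell (15.4% called). The gene that rose, the adaptor gene Tifa, averaged 5.71 ± 0.602 FPKM in siECHS1 and 4.50 ± 0.0765 FPKM in siNC (0.28, limma adjusted p = 0.0174).

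The tested genes flanking Rela and Relb were read as 5 on each side by order of gene start. Of the 10 flanking Rela, within 122 kb, 0 rose and 1 fell by limma, Ap5b1 (-0.28, adjusted p = 0.0228). Of the 10 flanking Relb, within 114 kb, 0 rose and 2 fell, Tomm40 (-0.23, adjusted p = 0.00214) and Nectin2 (-0.22, adjusted p = 0.00276). These shares are near or below the 21.0% called of all tested genes.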
